A study of Mus musculus with 16 samples.

Results

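YFP+ neurons of the basolateral amygdala (BLA) were compared with YFP+ neurons of the gustatory cortex (GC), both taken from mice trained in conditioned taste aversion (CTA). The comparison used the 4 CTA libraries of the BLA and the 4 CTA libraries of the GC, which are 8 of the 16 libraries in the series. Rows of the BLA and GC tables were matched by gene name and gene identifier, and genes with a mean TPM (the share of transcripts given to a gene, scaled to the same total in every library) of 1 or more over the 8 libraries were kept, which left 15077 of 31469 entries. No expression difference was used to choose them.

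The mice were males of the YFP-H line (B6.Cg-Tg(Thy1-YFP)HJrs/J), in which the Thy1 promoter drives YFP in a subset of excitatory projection neurons, and were 60 to 80 days old. CTA mice drank 0.5% saccharin for 30 min and were then injected intraperitoneally with 0.15 M LiCl at 2% of body weight. The taste control mice drank saccharin alike and received saline instead, and their 8 libraries (4 of each region) are used below to ask whether a region difference was also present without LiCl and whether it changed with training. Neurons of both groups were sorted by hand from slices 4 hr after training. The sources used here do not say whether the BLA and GC libraries came from the same animals, so p-values measure the spread between these libraries. Region also coincides with sort and with deposited table, and these cannot be told apart.

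CTA is a learned avoidance of a taste that was followed by malaise. The BLA is a nucleus of glutamatergic projection neurons and scattered interneurons that receives sensory and visceral input and sends axons to the GC, the taste area of the insular cortex, where projection neurons are arranged in layers. In the YFP-H line the labelled cortical cells are mostly deep-layer pyramidal neurons, so both samples hold excitatory projection neurons that differ in origin, layering and targets.

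After CTA, 994 of 15077 genes (6.59%) differed between regions by limma at an adjusted p under 0.05, and 850 of these differed at least 2-fold. Of the 994 genes, 258 (1.71% of genes tested) were higher in the BLA and 736 (4.88%) in the GC, that is 26.0% and 74.0% of the calls. All values of one region lay above all of the other for 531 genes on the BLA side (3.52%) and for 1666 on the GC side (11.0%). Differences are given as BLA minus GC of mean log2(TPM + 1), with the standard error (SE), so that a negative value is higher in the GC, and this scale understates the change of genes of low TPM. Over all genes tested the median difference was -0.22, and changes are read against it. When libraries were rescaled by median ratios, the median became -0.03 and 55.5% of 898 calls were higher in the GC, and after quantile normalization it was 0.01 and 58.8% of 805 calls were. Leaving out 1 GC library at a time lowered the calls to 548, 535, 612 and 581 for libraries 1 to 4 in turn, whereas leaving out a BLA library left 829 to 1113. None of the 994 genes was called in the opposite direction in any of these fits.

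The 2 sets of libraries were not alike in complexity. Entries above 0 TPM numbered 16084 to 17006 in the BLA libraries and 17996 to 18228 in the GC libraries. The 10 most abundant genes took 11.7 to 14.1% of all TPM in the BLA and 9.70 to 10.5% in the GC. Correlations of log2 values between libraries were 0.849 to 0.878 within the BLA, 0.916 to 0.939 within the GC and 0.824 to 0.879 across regions. The part of these differences in the region calls was not tested. In these sorted pools, fewer cells of a type and less RNA per cell cannot be told apart.

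Both samples carried the markers of glutamatergic projection neurons. Slc17a7, which encodes the vesicular glutamate transporter VGLUT1, was at 693, 802, 644 and 674 TPM in BLA libraries 1 to 4 and at 892, 839, 929 and 961 TPM in GC libraries 1 to 4. The difference of -0.37 (SE 0.126) did not pass the test (limma adjusted p = 0.113). Thy1, whose promoter drives the YFP, was the reverse, at 64127, 89098, 69558 and 70794 TPM in the BLA and 26938, 30878, 39587 and 30936 TPM in the GC. Thy1 was thus 2.29-fold higher in the BLA by means (log2 difference 1.20 (SE 0.132), limma adjusted p = 0.000281), a call lost with no filter on low values. The call was also lost under quantile normalization, which gives the most abundant entry of each library the same value. That fit therefore cannot show a Thy1 difference. Reads of the gene (chr9:44043384-44048579, GRCm38) and of Thy1 sequence in the transgene cannot be told apart in these tables. Among 16 projection neuron markers, Thy1 and Slc30a3, the zinc transporter of synaptic vesicles, were higher in the BLA, whereas Tbr1, Nrgn and Camk2b were among those higher in the GC, and the calls of Nrgn and Camk2b were lost under median-ratio rescaling. That of Camk2b was also lost without BLA library 3 or 4 or any 1 GC library (limma adjusted p up to 0.102, without GC library 4).

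Transcription factors set the regions apart. Of 69 cortical and amygdalar transcription factors tested, 30 were called, 8 higher in the BLA and 22 higher in the GC, where the fits without 1 library gave 5 to 9 and 17 to 21. The list's median difference was -0.75, against -0.22 over all genes. Pou3f1, a POU-domain factor of cortical projection neurons, was listed at 0 in all 4 BLA libraries and at 32.1, 22.8, 23.9 and 25.9 TPM in the GC libraries. Meis2, a homeobox factor of striatal and cortical cells, was likewise near 0 in the BLA, at 0.29, 0.04, 0.06 and 0.04 TPM in the BLA and 53.2, 60.5, 33.7 and 36.1 TPM in the GC. Both sets were without overlap (log2 differences -4.75 (SE 0.397) and -5.37 (SE 0.4)). Bcl6, a transcriptional repressor that promotes cortical neurogenesis, stood at 5.72, 5.53, 1.86 and 1.24 TPM in the BLA and at 82.7, 123, 111 and 107 TPM in the GC, 29.4-fold higher by means (log2 difference -4.69 (SE 0.406), limma adjusted p = 6.15e-05).

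Other factors that were higher in the GC included nuclear receptors and layer-enriched factors. Nr4a2, a nuclear receptor expressed in claustrum and deep cortical cells, was at 44.2, 108, 19.9 and 28.1 TPM in the BLA and 484, 489, 588 and 479 TPM in the GC. Although BLA library 2 was the highest of its group, it remained well under the lowest GC library (log2 difference -3.61 (SE 0.403)). Rorb, the nuclear receptor RORβ and a marker of cortical input layers, was at 1.09, 0.08, 0.12 and 0.57 TPM against 24.4, 19.5, 19.4 and 20.8 TPM (log2 difference -3.96 (SE 0.421)). Bhlhe40, a repressor of the clock and hypoxia pathways, was at 44.4 to 79.4 TPM in the BLA and 268 to 347 TPM in the GC. Tbr1, a T-box factor of glutamatergic cortical neurons, was clearly present in both regions, at 50.1 to 57.7 TPM and 135 to 170.4 TPM. Tbr1 was hence 2.78-fold higher in the GC (log2 difference -1.46 (SE 0.184), limma adjusted p = 0.000706), and Nfia, a nuclear factor I protein, was 9.61-fold higher (log2 difference -3.04 (SE 0.317)).

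Fewer factors were higher in the BLA, and most of these were also detected in the GC. Etv1, an ETS-domain factor, was at 404, 231, 320.4 and 374 TPM in the BLA and 62.7, 63.8, 37.9 and 36.2 TPM in the GC, which is 6.62-fold higher in the BLA (log2 difference 2.72 (SE 0.257), limma adjusted p = 0.000101). Nr2f2, the nuclear receptor COUP-TFII, was at 118, 92.2, 119.6 and 139 TPM against 25.7, 29.8, 26.7 and 25.96 TPM. Its lowest BLA library was above its highest GC library by a wide margin (log2 difference 2.06 (SE 0.218)). Zfpm2, a zinc finger cofactor of GATA proteins, was at 20.04 to 44.2 TPM in the BLA and 1.24 to 4.31 TPM in the GC (log2 difference 3.20 (SE 0.421)). Tshz2, a teashirt zinc finger protein, was more variable within the BLA, at 34.2, 102, 67.8 and 14.7 TPM, but did not overlap the GC at 0.87, 2.22, 5.67 and 2.77 TPM (log2 difference 3.66 (SE 0.594)). Lmo3, a LIM-only cofactor known for its amygdalar expression, was abundant in both regions and 2.09-fold higher in the BLA (429 to 505 TPM against 170.1 to 291 TPM).

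**Figure D1:**
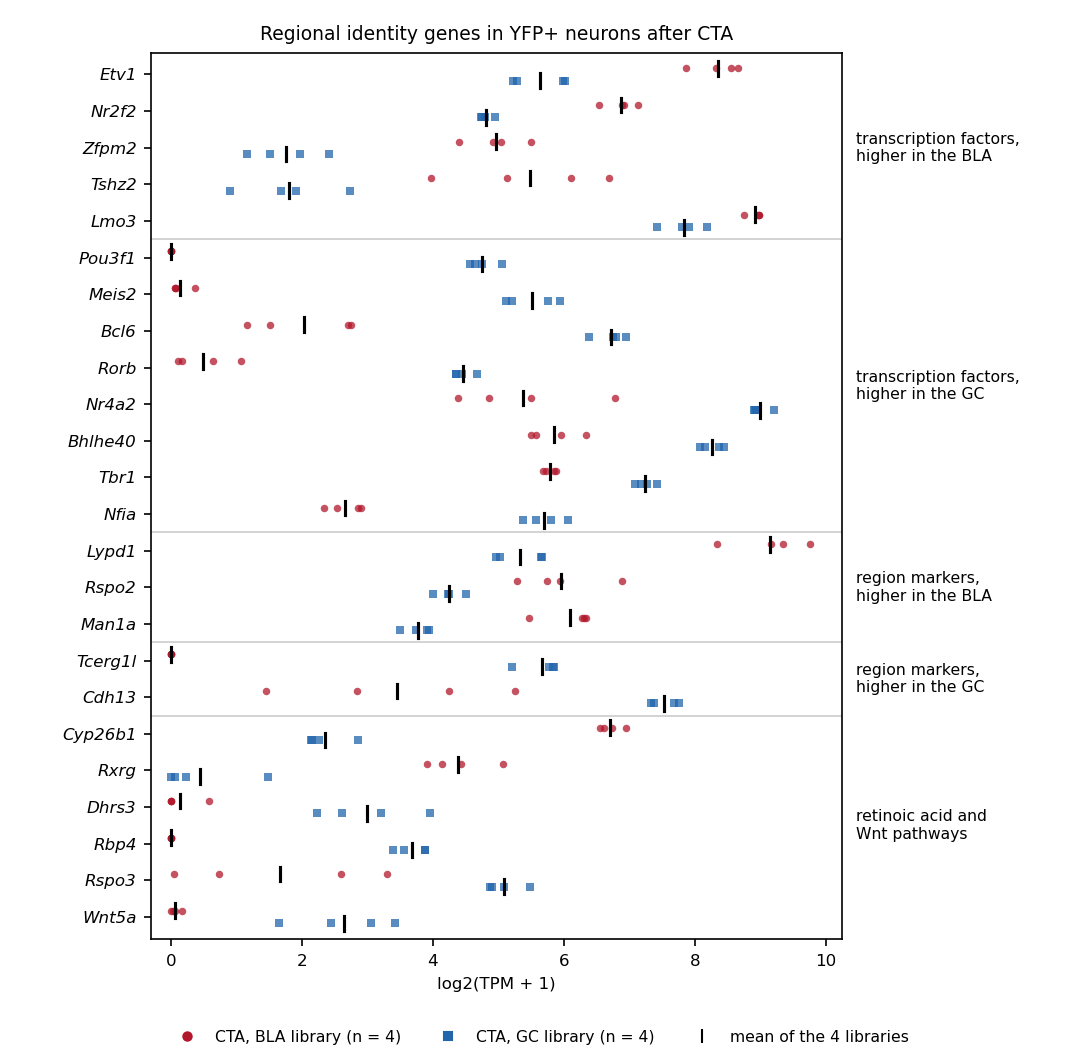
Levels of transcription factors, region markers and members of the retinoic acid and Wnt pathways in each CTA library, as log2(TPM + 1) on the horizontal axis, with 4 BLA libraries as circles, 4 GC libraries as squares and black ticks for the mean of each group. For every gene drawn the circles and squares do not overlap, and Pou3f1, Tcerg1l and Rbp4 were at 0 in all 4 BLA libraries.

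To show the regulatory sequence in front of genes that lay on either side of the comparison, RefSeq promoter windows on GRCm38.p6, running from 250 bases before to 50 bases after the annotated start, are given for 2 genes higher in the BLA and 2 higher in the GC. Capitals mark matches, on either strand, to the TATA box (TATAAA), the GC box (GGGCGG), the E-boxes CAGATG and CACGTG, the homeodomain core TAATTA, the CRE TGACGTCA, the AP-1 site TGACTCA and the nuclear receptor half-site AGGTCA. Cyp26b1 (chr6:84593761-84594060, minus strand), described below, held 1 TATA box and 3 GC boxes, and Etv1 (chr12:38779832-38780131, plus strand) held none of the 8 motifs. Bcl6 (chr16:23988803-23989102, minus strand) held the E-box CACGTG and 2 GC boxes, and Meis2 (chr2:116064570-116064869, minus strand) held 1 TATA box.
Cyp26b1: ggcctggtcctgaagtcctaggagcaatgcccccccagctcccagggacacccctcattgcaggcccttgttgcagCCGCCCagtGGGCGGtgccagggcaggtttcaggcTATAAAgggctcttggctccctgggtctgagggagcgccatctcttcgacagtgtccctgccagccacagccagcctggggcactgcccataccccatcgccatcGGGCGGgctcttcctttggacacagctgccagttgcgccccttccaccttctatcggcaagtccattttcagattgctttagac
Etv1: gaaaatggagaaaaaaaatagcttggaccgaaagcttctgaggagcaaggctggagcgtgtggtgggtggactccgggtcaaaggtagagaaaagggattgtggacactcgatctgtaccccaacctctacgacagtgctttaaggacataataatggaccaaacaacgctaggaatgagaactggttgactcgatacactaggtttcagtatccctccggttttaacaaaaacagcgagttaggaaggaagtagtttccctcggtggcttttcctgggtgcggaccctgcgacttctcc
Bcl6: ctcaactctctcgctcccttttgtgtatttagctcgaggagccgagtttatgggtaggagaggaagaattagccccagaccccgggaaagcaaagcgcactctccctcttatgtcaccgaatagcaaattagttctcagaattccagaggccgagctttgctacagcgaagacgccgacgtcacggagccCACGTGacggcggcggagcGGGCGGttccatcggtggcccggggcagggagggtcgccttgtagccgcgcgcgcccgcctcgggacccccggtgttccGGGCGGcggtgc
Meis2: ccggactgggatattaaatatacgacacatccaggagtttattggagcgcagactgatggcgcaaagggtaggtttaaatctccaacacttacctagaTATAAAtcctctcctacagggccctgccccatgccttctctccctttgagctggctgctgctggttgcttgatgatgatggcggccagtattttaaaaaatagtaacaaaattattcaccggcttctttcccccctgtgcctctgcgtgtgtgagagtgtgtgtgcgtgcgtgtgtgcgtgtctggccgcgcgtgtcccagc
Promoter windows were found for 10742 of the genes tested, among them 178 higher in the BLA and 521 higher in the GC. The GC box was in 62.4% of all windows, 61.2% of those of genes higher in the BLA and 64.7% of those of genes higher in the GC. The TATA box was in 7.49%, 10.1% and 8.06%, and the E-box CACGTG in 10.1%, 6.18% and 7.49%, in the same order. The half-site AGGTCA was in 12%, 6.18% and 9.79%, and TAATTA in 2.64%, 3.93% and 2.11%. These shares describe letters in a short window and were not tested.

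Marker genes of the 2 tissues followed their labels in part. Members were chosen with earlier results of these data known, so the counts below are a description and do not test the labels. Of 36 amygdala-enriched markers tested, 14 were higher in the BLA and 7 in the GC (10 to 14 and 5 to 7 without 1 library), with a median difference of 0.36. Lypd1, a GPI-anchored modulator of nicotinic receptors, was at 569.7, 651, 867 and 321 TPM in the BLA and 49.5, 30.1, 49.4 and 31.4 TPM in the GC, 15-fold higher in the BLA (log2 difference 3.83 (SE 0.297), limma adjusted p = 3.52e-05). Rspo2, an R-spondin that marks anterior BLA projection neurons, was at 117, 52.4, 60.6 and 37.9 TPM and 17.7, 17.9, 21.8 and 14.96 TPM (log2 difference 1.72 (SE 0.34)). Man1a, a Golgi mannosidase, was at 43.3 to 79.8 TPM in the BLA and 10.3 to 14.4 TPM in the GC. All of these were without overlap, whereas Cdh13, Meis2, Rorb and Npnt, which stand on the same list, were higher in the GC. Cdh13, a cadherin without a cytoplasmic domain, varied widely among BLA libraries, at 6.17, 17.9, 37.2 and 1.74 TPM, and was at 159, 204, 215 and 166 TPM in the GC (log2 difference -4.08 (SE 0.632), and -3.42 without BLA library 4 or -4.69 without BLA library 3).

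Of 46 layer-enriched cortical markers, 19 were higher in the GC and 3 in the BLA (17 to 19 and 2 to 3 without 1 library), with a median of -1.20. Etv1, Lypd1 and Rorb are on the amygdala-enriched list too, so the counts of these lists share members. Tcerg1l, a marker of deep-layer cortical neurons, was listed at 0 in every BLA library and was at 56.5, 56.01, 53.4 and 35.8 TPM in the GC, a log2 difference of -5.66 (SE 0.385). Syt6 and Rbp4, markers of deep layers, were likewise listed at 0 in all BLA libraries, at 4.62 to 10.96 TPM and 9.45 to 13.7 TPM in the GC. The 3 layer markers on the other side were Etv1, Lypd1 and Rprm, and the call for Rprm held only without BLA library 3 or without GC library 3 among the 8 fits without 1 library (limma adjusted p up to 0.102 in the others). Of 16 markers of central amygdala and striatal neurons, 4 were higher in the GC and none in the BLA by limma, and at an unadjusted p under 0.05 these were 9 and 0. Scn4b, a sodium channel β subunit and one of these 4, was at 1.68, 1.29, 0.02 and 0.05 TPM in the BLA and 30.2, 18.7, 26.9 and 26.3 TPM in the GC (log2 difference -4.03 (SE 0.469)).

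Retinoic acid genes showed an opposed pattern within a small pathway, in which dehydrogenases and reductases set the level of the ligand, CYP26 enzymes degrade it and RAR and RXR receptors bind it. Of 11 members tested, 2 were higher in the BLA and 2 in the GC, and the median of -0.51 became 0.07 after quantile normalization. Cyp26b1 (chr6:84571414-84593908), the enzyme that breaks down retinoic acid, was at 123, 96.3, 92.8 and 105 TPM in the BLA and 6.25, 3.41, 3.47 and 3.79 TPM in the GC. It was 24.6-fold higher in the BLA, with little spread among libraries (log2 difference 4.35 (SE 0.295), limma adjusted p = 1.55e-05). Rxrg, the receptor RXRγ, was at 32.6, 20.6, 14.03 and 16.6 TPM against 1.80, 0.05, 0.17 and 0 TPM (log2 difference 3.94 (SE 0.495)). On the GC side, Dhrs3, which reduces retinaldehyde to retinol, was at 0.49, 0, 0 and 0 TPM in the BLA and 14.5, 3.69, 8.20 and 5.11 TPM in the GC. Rbp4, the retinol carrier, was the other member higher in the GC, and both differences held in every fit without 1 library.

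Members of the Wnt pathway also pointed both ways. Of 25 tested, 3 were higher in the BLA and 4 in the GC (1 to 3 and 2 to 4 without 1 library), and the median of -0.39 became 0.01 after quantile normalization. The R-spondins, secreted amplifiers of Wnt signalling, were split, with Rspo2 higher in the BLA and Rspo3 higher in the GC. Rspo3 was at 8.85, 0.67, 5.03 and 0.03 TPM in the BLA and 43.8, 28.9, 28.2 and 33.1 TPM in the GC, where even the highest BLA library was below the lowest GC library (log2 difference -3.42 (SE 0.648)). Wnt5a, a ligand of non-canonical Wnt signalling, was at 0, 0.12, 0.04 and 0.02 TPM and 9.71, 7.31, 2.14 and 4.43 TPM (log2 difference -2.58 (SE 0.499)).

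Secreted proteins included some of the most abundant genes that differed. Of 34 neuropeptides and secreted prohormones tested, 4 were higher in the BLA and 6 in the GC (3 to 5 and 4 to 7 without 1 library). Cpe, carboxypeptidase E of peptide processing, was at 8491, 5089.7, 8209 and 8261 TPM in the BLA and 1560.0, 1558, 1854 and 1921 TPM in the GC. BLA library 2 was the lowest of its group and still above all GC libraries, and the means were 4.36-fold apart (log2 difference 2.10 (SE 0.167), limma adjusted p = 3.79e-05). C1ql3, a C1q-like synaptic organizer, was at 1345, 677, 1049 and 1098 TPM against 163, 203, 96.95 and 111 TPM, or 7.26-fold higher in the BLA (log2 difference 2.87 (SE 0.262)). Grp, gastrin-releasing peptide, was at 188, 112, 69.3 and 133 TPM in the BLA and 43.7, 45.5, 25.2 and 24.4 TPM in the GC (log2 difference 1.80 (SE 0.331)).

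The cerebellins, synaptic organizers of the same C1q family as C1ql3, lay on the other side. Cbln1 was at 3.48, 3.74, 0.61 and 2.11 TPM in the BLA and 24.7, 29.5, 23.04 and 36.1 TPM in the GC, and Cbln2 was at 12.2, 19.8, 8.80 and 24.2 TPM and 78.5, 71.5, 77.4 and 73.7 TPM. Neither overlapped between regions, with log2 differences of -3.17 (SE 0.439) and -2.24 (SE 0.318). Scg2, a granin from which secretoneurin is cut, was 2.8-fold higher in the GC (85.9 to 162 TPM against 252 to 486 TPM). Cck, cholecystokinin, was high in both regions at 2573, 4028, 4063 and 2996 TPM and 4929, 5008, 7387 and 6719 TPM. The Cck difference of -0.82 (SE 0.181) passed the test (limma adjusted p = 0.019) but not without GC library 3 or without GC library 4, where it was at most 0.0677, nor under median-ratio rescaling.

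Noradrenaline, serotonin, acetylcholine and cannabinoids reach these cells through neuromodulator receptors. The receptor genes that were called lay mostly on the GC side, as did 74.0% of all calls. Of 51 tested, 11 were higher in the GC and 2 in the BLA (8 to 12 and 1 to 2 without 1 library), with a median of -0.61. Over all genes tested, 4.88% were called higher in the GC and 1.71% in the BLA. Under median-ratio rescaling the receptor calls were 9 and 2. Chrm3, the muscarinic receptor M3, was at 0, 2.15, 0.77 and 0.05 TPM in the BLA and 37.4, 27.9, 28.1 and 42.3 TPM in the GC (log2 difference -4.47 (SE 0.471), limma adjusted p = 0.000218). Htr2a, the excitatory 5-HT2A receptor, was at 0.15, 1.43, 8.39 and 4.05 TPM against 73.7, 64.01, 86.5 and 70.7 TPM, 21-fold higher in the GC (log2 difference -4.45 (SE 0.557)). Its inhibitory relative Htr1a, the 5-HT1A receptor, was also higher there, at 0, 0, 1.86 and 0.62 TPM and 24.6, 14.1, 11.4 and 10.3 TPM.

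All 3 adrenergic receptor genes called were on the GC side. Adra1a, an α1 receptor coupled to phospholipase C, was at 0.59, 1.19, 5.89 and 3.10 TPM in the BLA and 33.5, 33.1, 38.2 and 23.1 TPM in the GC (log2 difference -3.37 (SE 0.489)). Adra1b, the related α1B receptor, was at 0.16 to 1.92 TPM and 8.66 to 22.5 TPM, and Adra2a, the inhibitory α2A receptor, at 0.02 to 5.79 TPM and 17.3 to 24.3 TPM. Each was without overlap, and each call held in every fit without 1 library. By contrast, Cnr1, the cannabinoid receptor CB1, was higher in the BLA, at 176, 137, 148 and 206 TPM against 75.99, 89.6, 40.04 and 80.6 TPM. Its log2 difference was 1.25 (SE 0.265) (limma adjusted p = 0.0154), although the call was lost without the intensity trend. Hcrtr1, the orexin receptor 1, was the other gene called higher in the BLA, but of the 8 fits without 1 library only that without BLA library 3 kept this call (limma adjusted p up to 0.142, without GC library 4).

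GABA-A receptor subunits, which form the chloride channels of fast inhibition, were divided between regions. Of 19 GABA receptor genes tested, 2 were higher in the BLA and 4 in the GC (2 in every fit and 2 to 4 without 1 library). Gabra2, the α2 subunit, was at 161, 130.1, 131 and 171 TPM in the BLA and 52.04, 72.5, 42.2 and 50.1 TPM in the GC, 2.74-fold higher in the BLA (log2 difference 1.45 (SE 0.22)). Gabrd, the δ subunit of extrasynaptic receptors, was at 6.54, 9, 1.61 and 3.87 TPM in the BLA and 38.1, 39.6, 49.95 and 40.3 TPM in the GC (log2 difference -2.94 (SE 0.428)). Gabrg1, the γ1 subunit, was higher in the BLA, at 28.1, 7.63, 22.4 and 27.9 TPM against 4.49, 3.26, 3.06 and 2.45 TPM (log2 difference 2.25 (SE 0.468)).

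Ionotropic glutamate receptors, the channels of fast excitation, were called mostly on the GC side before rescaling. Of 31 genes of AMPA, kainate and NMDA receptors and their auxiliary subunits, 7 were higher in the GC and 1 in the BLA (3 to 7 and 0 to 1 without 1 library). Under median-ratio rescaling the calls were 3 and 2, and after quantile normalization 6 and 1. Gsg1l, an auxiliary subunit of AMPA receptors, was at 1.01, 3.21, 0.88 and 0.13 TPM in the BLA and 39.02, 38.3, 76.1 and 63.8 TPM in the GC (log2 difference -4.68 (SE 0.47), limma adjusted p = 0.000157). Cacng5, another AMPA receptor auxiliary subunit, was at 0 to 0.06 TPM and 4.34 to 10.2 TPM (log2 difference -2.93 (SE 0.451)). Gria1, the GluA1 subunit, was the 1 gene higher in the BLA, at 379, 259.6, 269 and 265 TPM and 188, 201, 185 and 177 TPM. Its difference of 0.62 (SE 0.17) was at the threshold (limma adjusted p = 0.0499). The call held without BLA library 2 and was lost without each of the other 7 libraries in turn (limma adjusted p up to 0.136, without GC library 4). None of 10 metabotropic glutamate receptor genes was called by limma, with 1 higher in the BLA and 3 in the GC at an unadjusted p under 0.05.

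**Figure D2:**
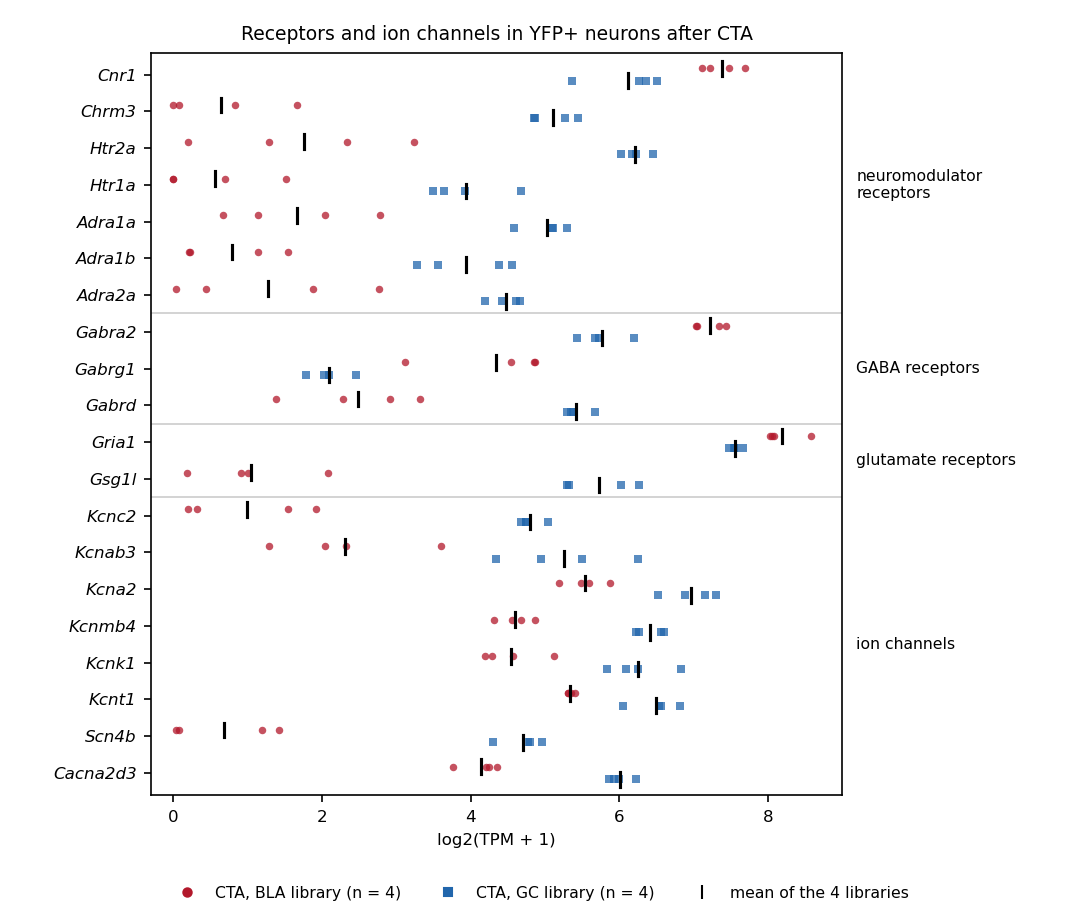
Levels of receptors and ion channels in each CTA library, as log2(TPM + 1) on the horizontal axis, with 4 BLA libraries as circles, 4 GC libraries as squares and black ticks for group means. Cnr1, Gabra2, Gabrg1 and Gria1 are to the right in the BLA, and all other genes drawn are to the right in the GC, without overlap.

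Nearly all potassium channel genes that were called lay on the GC side, against 74.0% of all calls. Over all genes tested, 4.88% were called higher in the GC and 1.71% in the BLA. Of 44 voltage-gated potassium and HCN channel genes, 11 were higher in the GC and 2 in the BLA (6 to 12 and 0 to 2 without 1 library). Of 22 other potassium channel genes, 7 were higher in the GC and none in the BLA by limma (12 and 1 at an unadjusted p under 0.05). Under median-ratio rescaling the calls were 8 and 2 for the voltage-gated and HCN list and 5 and 0 for the other list. Kcnc2, the fast delayed rectifier Kv3.2, was at 1.92, 2.79, 0.15 and 0.24 TPM in the BLA and 25.8, 25.9, 24.6 and 31.9 TPM in the GC (log2 difference -3.81 (SE 0.482)). Kcnab3, an auxiliary β subunit, was at 3.10, 3.99, 1.43 and 11.2 TPM and 74.98, 19.3, 29.7 and 44.01 TPM, with BLA library 4 the nearest to the GC (log2 difference -2.95 (SE 0.546)). Both channel genes were thus low in the BLA. Kcna2, the axonal channel Kv1.2, was instead present in both regions, at 57.7, 43.7, 35.3 and 47.3 TPM and 156, 141, 90.4 and 117 TPM, 2.74-fold higher in the GC. The 2 genes called higher in the BLA, Kcng1, a silent modulatory subunit, and Kcnd3, the A-type channel Kv4.3, lost their calls in each of the 4 fits without a GC library (limma adjusted p up to 0.0779 without GC library 1 and 0.107 without GC library 3), and Kcnd3 also without BLA library 2 or 3.

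Among the other potassium channels, Kcnmb4, the neuronal β4 subunit of BK channels, was at 24.6, 22.5, 18.8 and 28.1 TPM in the BLA and 73.95, 95.7, 93.2 and 75.7 TPM in the GC (log2 difference -1.81 (SE 0.237)). Kcnt1, the sodium-activated channel Slack, was at 38.5 to 41.3 TPM and 64.9 to 112 TPM, and Kcnk1, the leak channel TWIK1, at 17.2 to 33.8 TPM and 55.97 to 113 TPM. Each was higher in all 4 GC libraries than in any BLA library. Of 30 sodium and calcium channel genes, 7 were higher in the GC and none in the BLA by limma (5 to 8 and 0 without 1 library, and 12 and 1 at an unadjusted p under 0.05). Besides Scn4b these included Cacna2d3, the α2δ-3 auxiliary subunit of calcium channels, at 17.4, 17.9, 12.6 and 19.3 TPM in the BLA and 57.04, 73.8, 59.9 and 62.9 TPM in the GC (log2 difference -1.87 (SE 0.255)).

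Calcium-binding proteins fell on both sides. Of 39 calcium-binding proteins and neuronal calcium sensors, 7 were higher in the BLA and 10 in the GC (6 to 7 and 6 to 11 without 1 library), and the median of 0.00 was above that of all genes. Hpcal1, a visinin-like calcium sensor, was at 898, 727, 677 and 550.4 TPM in the BLA and 27.7, 47.6, 48.3 and 95.2 TPM in the GC, 13-fold higher in the BLA (log2 difference 3.79 (SE 0.311), limma adjusted p = 4.18e-05). Necab1, an EF-hand protein of neurons, was at 367, 184, 271 and 293 TPM against 58.4, 54.1, 20.1 and 32.9 TPM, and its relative Necab2 was at 59.2, 48.6, 37.6 and 60.5 TPM against 1.44, 10.3, 14.4 and 3.72 TPM. Both were without overlap (log2 differences 2.79 (SE 0.333) and 2.95 (SE 0.526)). Calb2, calretinin, was lower but on the same side, at 31.1, 5.78, 9.69 and 15.5 TPM and 2.66, 0.19, 0.29 and 0 TPM (log2 difference 3.18 (SE 0.602)). On the GC side, Rcan2, an inhibitor of calcineurin, was at 0.68, 10.3, 5.25 and 0.05 TPM in the BLA and 291, 184, 226 and 176 TPM in the GC, 53.8-fold higher by means (log2 difference -6.01 (SE 0.633), and -6.60 without BLA library 2).

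Subunits of the calcium/calmodulin-dependent kinase II were divided in a like manner. Camk2d, the δ subunit, was at 284, 246, 176 and 225 TPM in the BLA and 44.3, 60.9, 48.7 and 144 TPM in the GC, with GC library 4 the nearest to the BLA (log2 difference 1.78 (SE 0.333)). Camk2g, the γ subunit, was at 16.8, 31.6, 33.97 and 29.5 TPM and 134, 102, 109 and 106 TPM, 4.03-fold higher in the GC (log2 difference -2.01 (SE 0.261)). Camk2a, the α subunit and the most used marker of excitatory forebrain neurons, had means of 489 ± 92.5 TPM in the BLA and 636 ± 28.6 TPM in the GC (SD, n = 4) and was not called (limma adjusted p = 0.155).

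Most genes of the presynaptic release machinery that were called lay on the GC side, as did 74.0% of all calls. Of 48 genes tested, 8 were higher in the GC and 2 in the BLA (7 to 10 and 1 to 2 without 1 library), with a median of -0.46. Under median-ratio rescaling the calls were 5 and 3, and after quantile normalization 6 and 2. Cplx2, a complexin that clamps vesicle fusion, was at 36.6, 68.5, 38.5 and 48.4 TPM in the BLA and 338, 277, 360.2 and 372 TPM in the GC, 7.02-fold higher in the GC (log2 difference -2.82 (SE 0.226), limma adjusted p = 3.82e-05). Synpr, the vesicle protein synaptoporin, was at 28.8, 4.23, 5.23 and 13.6 TPM and 315, 292, 313 and 282 TPM, 23.2-fold higher in the GC (log2 difference -4.79 (SE 0.459)). Syt1, the calcium sensor synaptotagmin 1, was at 735 to 808 TPM against 1239 to 1545 TPM, or 1.76-fold higher in the GC. Syn2, synapsin II, was higher in the BLA, at 848, 772, 788 and 952 TPM against 311, 312, 286 and 331 TPM (log2 difference 1.43 (SE 0.133), limma adjusted p = 0.000101).

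Cadherins, which hold synaptic partners together, showed complementary levels. Of 32 cadherins and protocadherins tested, 4 were higher in the BLA and 7 in the GC (3 to 5 and 4 to 7 without 1 library). Cdh8 was at 87.3, 73.8, 68.2 and 109 TPM in the BLA and 31, 34.1, 24.7 and 23.1 TPM in the GC, and Cdh9 at 112, 80.3, 84.4 and 139 TPM and 27.3, 28.8, 33.05 and 35.1 TPM. Both type II cadherins were higher in every BLA library than in any GC library (log2 differences 1.54 (SE 0.248) and 1.68 (SE 0.244)). Cdh6, a type II cadherin too, was near 0 in the BLA, at 0.60, 0.13, 0.06 and 0 TPM, and was at 16.9, 23.8, 12.6 and 24.8 TPM in the GC (log2 difference -4.08 (SE 0.436)). Cdh12 and Cdh20 were also higher in the GC, at 13.3 to 18.7 TPM and 6.55 to 9.65 TPM against at most 1.83 TPM and 0.69 TPM in the BLA.

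Of 80 axon guidance and adhesion receptors, 15 were higher in the GC and 4 in the BLA (10 to 14 and 1 to 4 without 1 library). Semaphorins, cues that steer growing axons, were divided. Sema4g was at 39.1, 38.6, 36.5 and 41.3 TPM in the BLA and 1.56, 2.44, 3.29 and 0.34 TPM in the GC (log2 difference 3.90 (SE 0.427)), whereas Sema5b was at 0.14, 0, 0.07 and 0.07 TPM and 18.1, 31.7, 40.1 and 23.2 TPM (log2 difference -4.72 (SE 0.424)). Robo1, a receptor for Slit proteins, was at 4.94, 4.81, 3.66 and 4.01 TPM and 40.4, 34.7, 25.5 and 29.02 TPM, 7.44-fold higher in the GC. Slit2, a ligand of Robo1, was higher in the BLA, at 78.7, 62.6, 72.02 and 68.6 TPM against 25.99, 22.4, 43.8 and 27.4 TPM (log2 difference 1.25 (SE 0.259), limma adjusted p = 0.0141), and this call was lost without GC library 2 (limma adjusted p = 0.053). Olfm3, an olfactomedin that binds AMPA receptor complexes, was at 0, 0.02, 0.12 and 0.02 TPM in the BLA and 77.9, 71.8, 43.9 and 39.99 TPM in the GC (log2 difference -5.78 (SE 0.402), limma adjusted p = 1.61e-05).

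Matrix genes that were called lay mostly on the GC side, as did 74.0% of all calls. Of 36 genes of the extracellular and perineuronal matrix, 13 were higher in the GC and 1 in the BLA (11 to 15 and 0 to 2 without 1 library), with a median of -0.72. Over all genes tested, the shares called were 4.88% for the GC and 1.71% for the BLA. Under median-ratio rescaling the matrix calls were 13 and 2. Col11a1, a fibrillar collagen chain, was at 1.84, 0.05, 4.01 and 0.72 TPM in the BLA and 97.7, 152, 94.8 and 50.95 TPM in the GC, 59.8-fold higher in the GC (log2 difference -5.37 (SE 0.514)). Col24a1, also a fibrillar collagen chain, was listed at 0 in all BLA libraries and was at 9.16 to 17.7 TPM in the GC. Reln, the secreted glycoprotein reelin, was at 0.07, 0.04, 2.85 and 0.12 TPM and 17.5, 16.5, 20.4 and 13.3 TPM (log2 difference -3.59 (SE 0.517)).

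**Figure D3:**
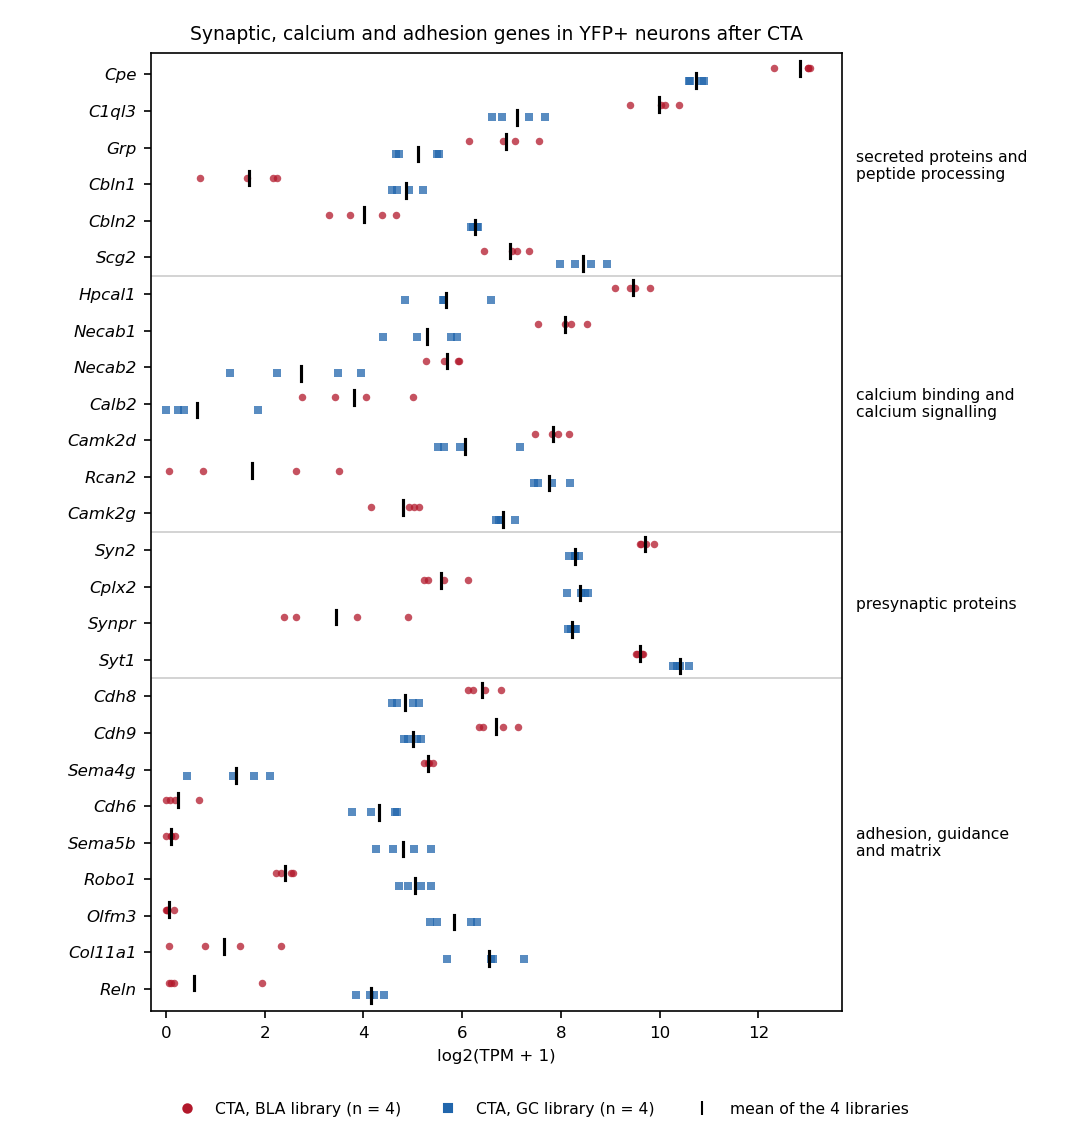
Levels of secreted, calcium-binding, presynaptic and adhesion genes in each CTA library, as log2(TPM + 1) on the horizontal axis, with 4 BLA libraries as circles, 4 GC libraries as squares and black ticks for group means. Cpe, C1ql3, Grp, Hpcal1, Necab1, Necab2, Calb2, Camk2d, Syn2, Cdh8, Cdh9 and Sema4g lie higher in the BLA and the other genes higher in the GC, with no overlap in any of them.

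G protein subunits gave a further pair. Of 56 genes of cyclic nucleotide and G protein signalling, 9 were higher in the GC and 1 in the BLA (6 to 8 and 1 to 2 without 1 library). Gng4, a γ subunit, was the gene higher in the BLA, at 123, 68.4, 109 and 104 TPM against 38.4, 34.2, 35.3 and 33.5 TPM (log2 difference 1.46 (SE 0.235)). Gnb4, a β subunit known as a marker of the claustrum, was at 23.7, 18.7, 3.75 and 11.8 TPM and 156, 169, 130.2 and 112 TPM, 9.82-fold higher in the GC (log2 difference -3.43 (SE 0.442)). The Gnao1 call, for the Gα-o subunit, was lost under median-ratio rescaling.

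Genes regulated by activity and by stress hormone were examined next. Among 28 immediate early genes, Nr4a3 was called higher in the BLA and Nr4a2 higher in the GC, a share of 7.14% called against 6.59% of all genes, and the Nr4a3 call was lost without GC library 1 (limma adjusted p = 0.0593) or 4. Fos, the gene used to mark recently active neurons, was at 40.9, 31.9, 19.9 and 33.95 TPM in the BLA and 16.1, 21.7, 42.7 and 40.4 TPM in the GC. The ranges overlapped and the difference of 0.13 (SE 0.369) was not called (limma adjusted p = 0.883). Of 22 delayed activity-regulated genes, 1 was higher in the BLA and 3 in the GC (0 to 1 and 2 to 4 without 1 library). The gene on the BLA side was Pcsk1, a prohormone convertase, whose call was lost without GC library 4 (limma adjusted p = 0.0553). Glucocorticoid-responsive genes, which rise with stress hormone, had 5 of 17 members higher in the GC and none in the BLA by limma (4 to 6 and 0 without 1 library, and 7 and 0 at an unadjusted p under 0.05), with a median of -1.02. Mt1, a metallothionein, was at 48.3, 84.6, 76.5 and 34.7 TPM in the BLA and 297, 263, 407 and 384 TPM in the GC (log2 difference -2.51 (SE 0.282)). Hsd11b1, which encodes an enzyme that regenerates active glucocorticoid, was at 0.23, 0, 0 and 0 TPM and 24.5, 8.79, 14.5 and 11.99 TPM (log2 difference -3.83 (SE 0.455), limma adjusted p = 0.00049).

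Stk11 encodes the kinase LKB1, an activator of the AMP-related kinases. The study chose it from genes that differed between these CTA BLA libraries and the taste control BLA libraries, where it was lower after CTA. Its CTA and taste control values in the BLA therefore entered that choice. After CTA Stk11 was at 19.8, 18.3, 14.5 and 15.4 TPM in the BLA and 43.5, 28.1, 77.8 and 36.1 TPM in the GC. All GC libraries were higher, 2.72-fold by means (log2 difference -1.30 (SE 0.336), limma adjusted p = 0.04), but the call held only without GC library 2, was lost without each of the other 7 libraries in turn (limma adjusted p up to 0.125, without GC library 3) and was lost under both rescalings. The Stk11 gene (chr10:80115803-80130682) overlaps Cbarp, and reads of the overlap could not be separated. Mark2, an AMP-related kinase that phosphorylates microtubule-associated proteins, was at 32.96, 35.8, 41.9 and 28.9 TPM and 127, 104, 58.9 and 71.8 TPM (log2 difference -1.30 (SE 0.277), limma adjusted p = 0.0161). This call was lost without GC library 1 and without GC library 2, where the adjusted p was at most 0.0649. Of 23 members of the list of STK11 and AMP-related kinases, Stk11, Mark2 and Nuak1 were higher in the GC and none in the BLA by limma (1 to 4 and 0 without 1 library, and 8 and 0 at an unadjusted p under 0.05). The Nuak1 call was lost without GC library 3 or 4 (limma adjusted p up to 0.0889). In taste control none of these 3 was called, but 3 other members of the list were called higher in the GC and none in the BLA. The region by training term was -1.20 for Stk11 and -1.16 for Mark2 on the log2 scale and did not pass the test for either (limma adjusted p = 0.9995, unadjusted p = 0.0129 and 0.0176). From the same BLA libraries the study also reported Mark2 as lower after CTA, a change that did not pass its correction across kinases. Both terms reuse these BLA values, so their unadjusted p-values are a description.

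Housekeeping genes showed small shifts. Of 77 cytosolic ribosomal protein genes, 11 were higher in the BLA and none in the GC by limma (2 to 10 and 0 to 1 without 1 library, and 27 and 0 at an unadjusted p under 0.05), with 67 of 77 differences above 0 and a median of 0.27, which was 0.48 under median-ratio rescaling and 0.23 after quantile normalization. Rpl41 was at 5469, 5607, 5551 and 4673 TPM in the BLA and 2784, 2809.8, 3613 and 3493 TPM in the GC, 1.68-fold higher in the BLA, and Rps29 was at 1725 to 1978 TPM against 1117 to 1368 TPM, 1.53-fold higher. None of 77 oxidative phosphorylation genes was called by limma (4 higher in the BLA and 7 in the GC at an unadjusted p under 0.05), with 39 differences above 0 and a median of 0.00.

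**Figure D4:**
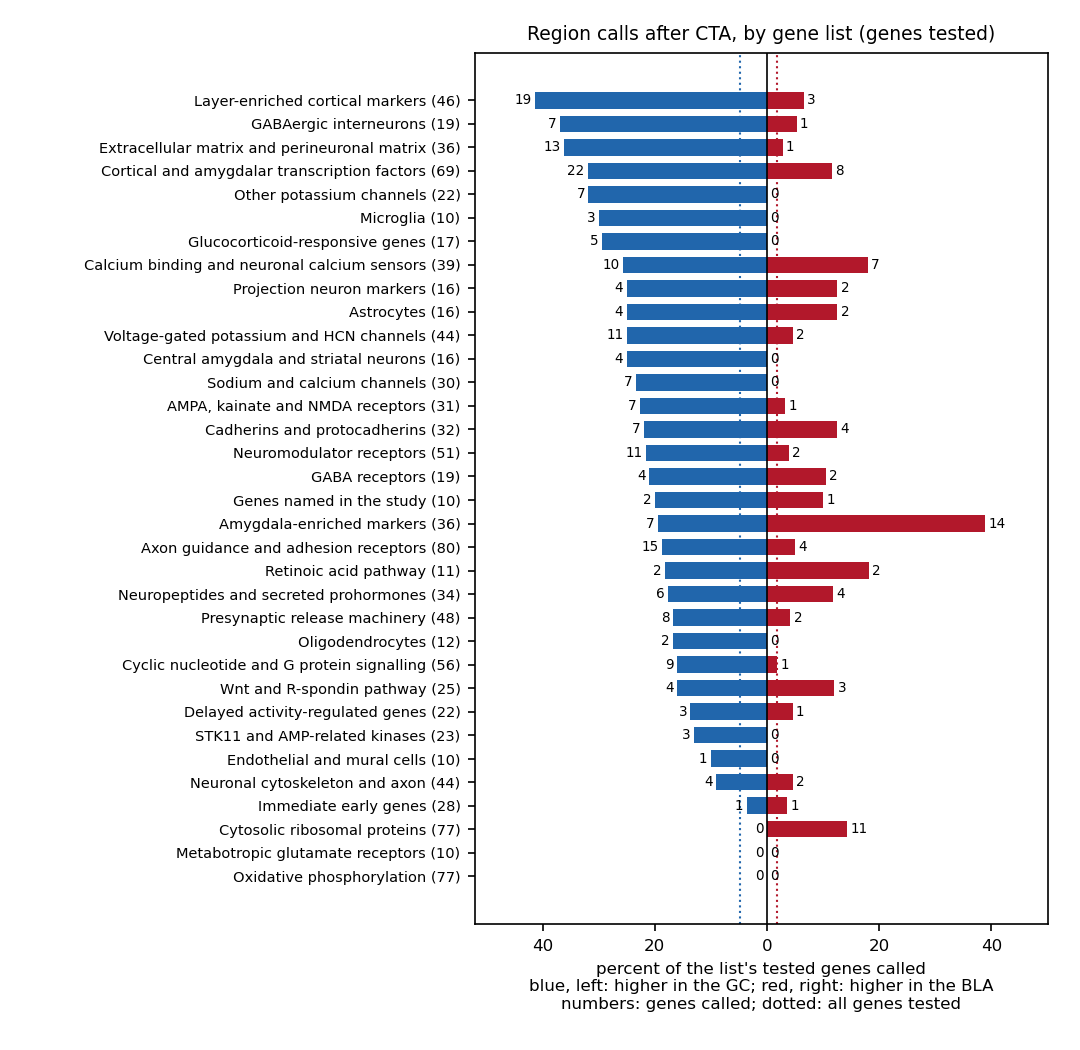
Share of the tested genes of each list that limma called after CTA, with genes higher in the GC as bars to the left and genes higher in the BLA as bars to the right, in percent, and the number called at each bar end. Dotted lines give the shares over all genes tested, 4.88% for the GC and 1.71% for the BLA. The amygdala-enriched markers have the longest bar to the right, 14 of 36 genes, and the lists were chosen with earlier results of these data known.

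Some of the largest differences were in genes outside the lists. Hic2 (chr16:17233572-17263430), a zinc finger transcriptional repressor, was at 10.9, 1.09, 1.37 and 2.69 TPM in the BLA and 9374, 9918, 4211 and 5859 TPM in the GC, a log2 difference of -10.82 (SE 0.481) (limma adjusted p = 6.86e-07). Rsad1 (chr11:94539798-94549255), a radical SAM domain protein, was at 546, 151, 149.8 and 325 TPM and 18039, 19732, 9875 and 12328 TPM, 51.2-fold higher in the GC. Together they stood among the most abundant entries of the GC libraries, and in taste control the same difference was present, at -9.36 for Hic2 and -5.30 for Rsad1. Region coincides with sort in taste control too, so region and sort cannot be told apart for Hic2 and Rsad1. The source of their levels was not tested. With Thy1, Hic2 and Rsad1 left out and the libraries rescaled, a setting chosen after the data were seen, 947 genes were called, 936 of them among the 994. Igfbp4, a binding protein of insulin-like growth factors, was at 2.06, 0.42, 0 and 0 TPM in the BLA and 56.7, 59.1, 69.5 and 65.6 TPM in the GC. Lypd6b, a relative of Lypd1, was at 0.15 to 1.53 TPM and 46.6 to 54.5 TPM, and so lay opposite to Lypd1.

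On the BLA side, genes outside the lists included Ankfn1, Arhgef6 and Ptprc. Ankfn1, an ankyrin-repeat protein, was at 28.9, 33.2, 8.39 and 55.9 TPM in the BLA and 0.12, 0.08, 0 and 0.50 TPM in the GC (log2 difference 4.55 (SE 0.556)). Arhgef6, a Rac and Cdc42 exchange factor, was at 40.3, 28.1, 35.98 and 46.2 TPM against 1.89, 1.80, 2.04 and 1.86 TPM, 19.8-fold higher in the BLA with little spread (log2 difference 3.72 (SE 0.352)). Ptprc, the leukocyte phosphatase CD45, was at 30.4, 26.4, 41.5 and 33.04 TPM in the BLA and 4.34, 0.39, 0.18 and 0.39 TPM in the GC (log2 difference 4.16 (SE 0.52)). Of 10 microglial markers tested beside it, C1qb, Tyrobp and Trem2 were higher in the GC and none was called higher in the BLA (4 and 0 at an unadjusted p under 0.05). Of the 8 fits without 1 library, the calls of C1qb and Tyrobp held only in that without GC library 2 and the call of Trem2 only in that without BLA library 4 (limma adjusted p up to 0.13, 0.0995 and 0.0857). Aif1, which encodes the microglial protein IBA1, was at 3.91, 3.39, 42.7 and 60.3 TPM in the BLA and 1.94, 1.98, 3.09 and 11.8 TPM in the GC and was not called (limma adjusted p = 0.289), and Cx3cr1 was at 0.41 to 1.19 TPM and 0.50 to 1.26 TPM.

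Markers of other cell types were detected in both regions. The summed level of the 16 astrocyte markers was 449 to 497 TPM in the BLA and 501 to 586 TPM in the GC, with 2 markers called higher in the BLA and 4 in the GC (1 to 2 and 2 to 4 without 1 library). Higher in the BLA were Atp1b2 and S100b. Atp1b2 was at 110 to 162 TPM in the BLA and 55.0 to 70.3 TPM in the GC (log2 difference 1.08 (SE 0.2), limma adjusted p = 0.00753). The S100b difference was 1.26 (limma adjusted p = 0.0151), and its call was lost in 2 fits without 1 library (limma adjusted p up to 0.0553). Among the 4 higher in the GC, Aldoc, aldolase C, was at 0.73, 3.28, 1.06 and 13.8 TPM in the BLA and 70.2, 65.6, 67.2 and 72.8 TPM in the GC (log2 difference -4.17 (SE 0.581), and -4.82 without BLA library 4). The defining markers Gfap and Aqp4 were at no more than 9.28 TPM and 6.07 TPM in any library. For oligodendrocytes the sum was 43.0 to 142 TPM in the BLA and 179 to 285 TPM in the GC, and Mbp, myelin basic protein, was at 39.6, 52.8, 24.7 and 26.5 TPM against 117, 78.2, 105 and 95.1 TPM. Mbp and Cryab, both higher in the GC, were the only 2 called of 12 oligodendrocyte markers tested. The median over the 12 was -0.20, against -0.22 over all genes, and became 0.21 after quantile normalization. Microglial markers summed to 14.6 to 84.4 TPM and 44.1 to 91.5 TPM, and endothelial and mural markers to 263 to 436 TPM and 416 to 499.6 TPM, with Itm2a alone of 10 called, higher in the GC. Most of the endothelial and mural sum was Bsg, basigin, at 237 to 413 TPM in the BLA and 359.8 to 452 TPM in the GC, which was not called. The part of these cells in the region calls was not tested.

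GABAergic interneuron markers had 7 of 19 genes higher in the GC and 1 in the BLA (4 to 6 and 1 without 1 library), the latter being Calb2. Their summed level, dominated by Cck, was 2899.8 to 4443 TPM in the BLA and 5311 to 7966 TPM in the GC. The defining markers varied among libraries of both regions. Gad1, the GABA-synthesizing enzyme GAD67, was at 10.3, 0.03, 4.90 and 0.06 TPM in the BLA and 5.28, 0.21, 8.64 and 14.9 TPM in the GC, and Slc32a1, the vesicular GABA transporter, at 10.4, 0, 2.97 and 0.08 TPM and 1.79, 0, 5.01 and 0.98 TPM. Neither was called. Pvalb, parvalbumin, was listed at 0 in all BLA libraries and was at 21.8, 4.76, 81.02 and 2.05 TPM in the GC, and its call (limma adjusted p = 0.0226) was lost without GC library 1 (0.0775). Kcnc2, Reln and Ndnf, which are on this list as well, were among those higher in the GC. Kcnc2 was also counted with the potassium channels and Reln with the matrix genes, so these lists share members. Of the 19 differences, 9 were above 0 and 10 below 0. The part of interneurons in the matrix and potassium channel results was not tested.

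The same comparison in taste control asked whether the region differences needed LiCl. There, 276 genes (1.83%) were higher in the BLA and 927 (6.15%) in the GC of 15085 tested. Of the 994 genes called after CTA, 987 were tested in taste control, 961 had the same sign and 613 were also called with the same sign. The 613 are 62.1% of these 987 and 51.7% of the taste control calls that were also tested after CTA. None was called in the opposite direction. For the 258 genes higher in the BLA after CTA the median taste control difference was 1.23, and for the GC side it was -1.63 over 729 genes, against -0.25 over all genes tested in both. After CTA, by which these genes were chosen, the medians were 1.61 and -2.06. Bcl6 was at 2.18, 1.67, 0 and 2.59 TPM in the taste control BLA libraries and 104, 104, 74.9 and 55.02 TPM in those of the GC, and Cyp26b1 was at 111, 101, 135 and 77.4 TPM and 10.1, 2.52, 4.37 and 6.91 TPM. Both therefore kept the order of the regions in every library.

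A direct test of whether the region difference itself changed with training called none of 15191 genes by limma (0.00%), with 601 at an unadjusted p under 0.05 and a smallest adjusted p of 0.9995. The genes nearest to a change included Pglyrp1, a peptidoglycan recognition protein, which after CTA was listed at 0 in all BLA libraries and was at 8.88, 7.07, 24.9 and 1.97 TPM in the GC, and in taste control was at 2.67, 3.05, 0 and 1.87 TPM and 0.93, 0.28, 1.38 and 0 TPM. Rangrf, a regulator of Ran and of sodium channel trafficking, had a difference of -3.43 after CTA and 0.06 in taste control. The call for each after CTA held in every fit without 1 library, but the terms of -3.86 and -3.49 did not pass adjustment.

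**Figure D5:**
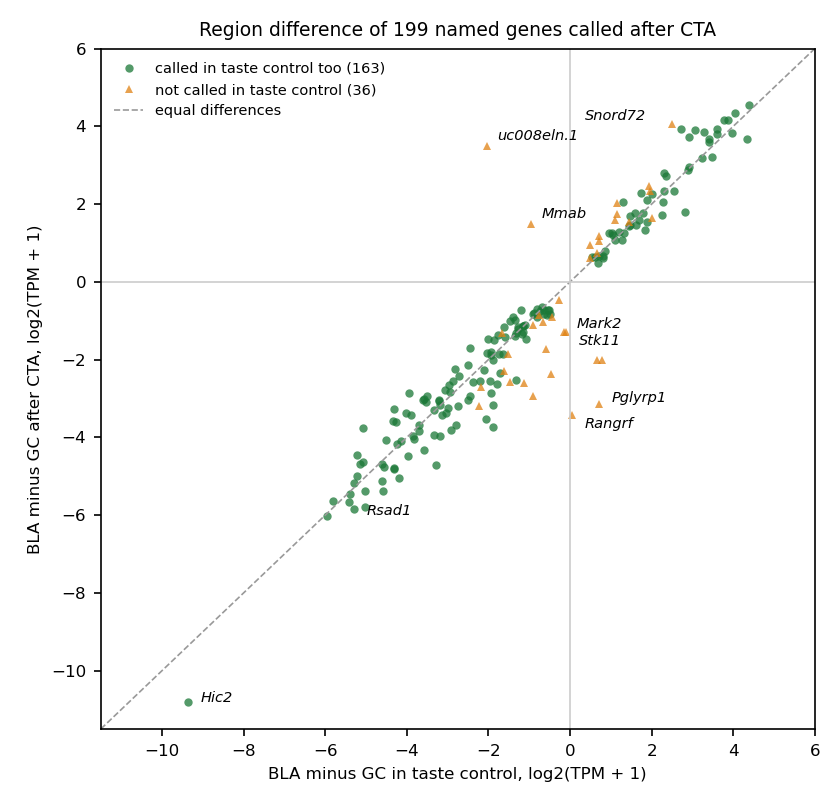
Region difference of 199 named genes called after CTA, with the BLA minus GC difference in taste control on the horizontal axis and after CTA on the vertical axis, both in log2(TPM + 1). Circles are 163 genes also called in taste control, triangles are 36 genes that were not, the dashed line marks equal differences, and the genes were chosen by their CTA values, so those values are a description.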

How the data were processed

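RNA of hand-sorted YFP+ neurons was sequenced by the authors, who aligned reads to mm10 with TopHat (version not given in the sources used here) and deposited TPM values for each library, 1 table per region. Each library is scaled to its own total, so TPM keeps no read depth, no counting intervals can be given, and precision rests on the spread between 4 libraries a group. Group means, fold changes and p-values in the deposited tables were not used. Where a gene name stood on several rows (318 names), each row was tested as its own gene. Genes with a mean of 1 TPM or more were tested on log2(TPM + 1), with a pseudocount of 1, in limma 3.58.1 (R 4.3.3) with an intensity trend and Benjamini-Hochberg adjustment at 0.05. The exact permutation p of 4 against 4 without overlap is 0.0286, the smallest that design allows. The region fits were run on simulated data with known shifts, and only the median estimates were checked. The simulation gave both regions the same spread, whereas the median SD of log2 values was 0.623 in the BLA and 0.383 in the GC after CTA. Named genes were the 15 largest differences in each direction among called genes without overlap at 30 TPM or more, and up to 6 called members of each list and direction, plus the 3 most abundant members of marker lists, the genes the study named and the 10 genes with the smallest p for the region by training term. Some genes are counted in their lists but not reported here. Members and lists were chosen with earlier results of these data known. Of 231 named genes with a position in the GRCm38 annotation, 99 overlap another gene, and reads of such pairs, and of near-identical copies such as ribosomal pseudogenes, could not be told apart. Alternatives were other pseudocounts, filters, scalings, weights, a replicate block and leaving out each library.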

Additional observations from a re-analysis of the deposited data

Results flagged for a closer look

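Among 92 of the genes described above, 180 groups of 4 CTA libraries had values that differed, and in 15 of them 1 library stood apart from the other 3 by the gap between its log2(TPM + 1) and the nearest value. Chance alone sets 1 in 20 such groups apart. In the BLA there were 10. Library 1 was the highest for Gria1 (379 TPM), Meis2 (0.29 TPM), Dhrs3 (0.49 TPM) and Hsd11b1 (0.23 TPM). Library 2 was the lowest for Cpe (5089.7 TPM), Lmo3 (429 TPM) and Man1a (43.3 TPM) and the highest for Lypd6b (1.53 TPM). Library 3 was the highest for Reln (2.85 TPM), and library 4 the lowest for Rpl41 (4673 TPM). In the GC there were 5. Library 1 was the highest for Cyp26b1 (6.25 TPM), Rxrg (1.80 TPM) and Ptprc (4.34 TPM), library 3 was the highest for Nr4a2 (588 TPM) and library 4 was the lowest for Tcerg1l (35.8 TPM). In each of these 15 groups the library that stood apart still lay on its own region's side of all libraries of the other region, and the Gria1 call, whose fit without BLA library 1 was not past the threshold, was the only one of the 15 that any left-out library removed.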

How the results depend on the processing

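After CTA, 258 genes were higher in the BLA and 736 in the GC. With a mean of at least 30 TPM asked for, these were 159 and 339, under median-ratio rescaling 400 were higher in the BLA, and after quantile normalization 473 were higher in the GC. Leaving out 1 library gave 140 to 277 for the BLA and 390 to 836 for the GC. In taste control, 276 and 927 became 468 for the GC at 30 TPM, 452 and 562 under median-ratio rescaling, 602 for the GC after quantile normalization and 180 for the BLA without an intensity trend, and 168 to 283 and 509 to 883 without 1 library. The region by training term stayed at 0 genes in every setting. The replicate block gave 159 and 483 after CTA and 175 and 575 in taste control. Deviations of libraries with the same number correlated at 0.0923, -0.105, -0.00126 and -0.0522, so the numbers were not taken to pair samples. The other settings kept each count within 1.5 times. Of 201 named genes called after CTA, 143 were called in every fit without 1 library, and none changed sign while called. Causes were not tested. Unknown depth limits what can be said of genes listed at 0.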

Other observations

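At the edge of detection the regions were also unequal. Over the genes tested, 61 were above 0 TPM in all GC libraries and listed at 0 in all BLA libraries, and 6 were the reverse. Pou3f1, Tcerg1l, Rbp4, Syt6, Col24a1 and Pglyrp1 are among the 61. Of the 100 most abundant genes of each region, 78 were shared.

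A few genes called after CTA had the opposite sign in taste control without being called there. The entry uc008eln.1 was at 88.4, 31.4, 115 and 58.7 TPM in the BLA and 4.57, 13.2, 0 and 14.5 TPM in the GC after CTA, and at 40.6, 26.3, 0 and 0 TPM and 25, 10.7, 44.3 and 22.1 TPM in taste control. Mmab, an enzyme of cobalamin metabolism, was 1.48 after CTA and -0.95 in taste control. The study had listed Mmab as higher after CTA from the same BLA values. The region by training term did not pass adjustment for either (limma adjusted p = 0.9995), and both calls after CTA were lost when 1 library was left out, that of uc008eln.1 without BLA library 3 or GC library 1 (limma adjusted p up to 0.0541) and that of Mmab without GC library 4 (0.05).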
